A study of Homo sapiens with 24 samples.

Results

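The comparison described here sets SW620 against parental HCT15, a pair of human colorectal cancer lines. It takes the 8 libraries of these lines out of 24 in the series, chosen by the cell line and library type in their labels. Each line has 2 libraries of input RNA (INPUT) and 2 libraries of ribosome-protected fragments (RPF, the footprints). The other 16 libraries come from 841CON, labelled as normal colon cells, from HCT116, and from HCT15 cells carrying the PLVX vector or labelled as overexpressing COPS7B. The design text of the series asks how translational efficiency in each cancer line differs from that in the normal cells, so SW620 against HCT15 is a contrast between lines that the same libraries allow.

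Both lines are labelled as wild type, and neither carries a vector or an added gene. All cells received cycloheximide, an inhibitor that holds elongating ribosomes on their mRNA, at 100 µg/mL for 10 minutes before lysis. HCT15 was grown in DMEM in a CO2 incubator and SW620 in L15 medium in an air incubator, so that line, medium and gas cannot be told apart. The labels do not say that replicates came from separate cultures. The p-values set the difference between the lines against the spread between replicate libraries of all groups in the series. That spread may be technical, and it was not alike between groups. The coefficient of variation between replicates, estimated by edgeR, was 0.635 in HCT15 INPUT, 0.680 in HCT15 RPF, 0.310 in SW620 INPUT and 0.406 in SW620 RPF. Over the series it ran from 0.0372 in HCT116 INPUT to 0.792 in 841CON INPUT. The p-values therefore do not rest on the replicate spread of the 2 compared lines alone.

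SW620 was established from a lymph node metastasis and HCT15 from a primary colorectal tumour, and cells of both lines grow as epithelial-type cultures. In ribosome profiling, nuclease removes mRNA that no ribosome covers, and the fragments that survive are sequenced. A gene with more RNA usually gives more footprints, so the footprint level is read against the RNA level of the same cells. Their ratio, the translational efficiency (TE), rises when more ribosomes sit on each copy of an mRNA and falls when fewer do. It does not show by itself how fast those ribosomes move.

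The deposited tables hold Ensembl identifiers only, without the names of the genes. Of 59792 genes in the RefSeq table used here, 0 carry an Ensembl identifier and 0 identifiers were matched. Groups of genes are therefore described by their direction and level, a few genes are given by identifier, and the labelled tissue was not checked against marker genes. In libraries of whole cultures, fewer cells expressing a gene and less RNA per cell cannot be told apart.

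Depth differed most between the footprint libraries. The HCT15 INPUT libraries held 5755678 and 2350691 counts in genes, and those of SW620 1632444 and 2902719. The HCT15 RPF libraries held 1473562 and 4679279 counts, whereas the SW620 RPF libraries held 98043 and 84262, the latter being the lowest total of the series. A single count in SW620 RPF stood for 8.71 and 10.7 CPM, the count relative to the library total over the genes tested, adjusted by trimmed means. At least 10 footprint counts were found for 2219 and 1712 of the 11938 genes tested, and 2131 genes had none in either SW620 library, against 738 in HCT15. Counts in genes that the footprint tables do not list made up 25.1% and 17.0% of HCT15 INPUT and 41.2% and 46.2% of SW620 INPUT, and are not part of the tests. Replicates of 1 group correlated at r = 0.945 in SW620 INPUT, 0.869 in HCT15 INPUT, 0.863 in HCT15 RPF and 0.695 in SW620 RPF. Each r was taken over the log2 CPM of all 11938 genes tested, those without counts included.

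RNA levels differed between the lines for about as many genes in each direction. Of 11938 genes tested, 1347 were higher in SW620 and 1443 lower, which is 23.4% called in either direction, 11.3% higher and 12.1% lower. A gene counts as called here where the quasi-likelihood test of edgeR gave a Benjamini-Hochberg adjusted p under 0.05; without adjustment 4296 genes were under 0.05. The same fit called 80 genes, 0.67% of those tested, between HCT15 with the vector and parental HCT15. The median difference over all genes was 0 on the log2 scale.

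Many of the RNA differences were large. Among the higher genes, 472 differed by under 4-fold, 444 by 4-fold to 16-fold and 431 by over 16-fold in the fitted values. The lower genes fell into 706, 404 and 333 in the same classes. No INPUT count in either HCT15 library was found for 210 of the higher genes, and none in either SW620 library for 181 of the lower ones. The higher genes took up 26.3% and 23.8% of the counts in the SW620 INPUT libraries and 6.57% and 7.06% in HCT15. For the lower genes these shares were 5.27% and 6.07% in SW620 and 20.9% and 22.3% in HCT15. These shares and levels describe genes chosen by the same contrast and are not further evidence of it.

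The calls were not spread evenly over expression levels. Genes were put in 5 equal classes by mean log2 CPM over all 24 libraries, INPUT and RPF together. Of the lowest class 21.2% were called, of the next ones 19.1%, 20.1% and 25.3%, and of the highest class 31.2%. Of the called genes, 65.1% were higher in SW620 in the lowest class and 31.2% in the highest. The classes rest partly on the RNA under test, and on more libraries labelled HCT15 than SW620. This can by itself place genes that are low in SW620 in the high classes. Its part in the pattern was not tested. The split between higher and lower genes rested on single HCT15 INPUT libraries. Without HCT15 INPUT replicate 1 the split was 659 higher and 1566 lower, and without replicate 2 it was 1584 higher and 1258 lower. Without SW620 INPUT replicate 1 or 2 a total of 1624 or 1628 genes passed.

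The gene with the largest RNA excess in SW620 by the naming rule, ENSG00000273983, was read at 786 and 938 CPM in the SW620 INPUT libraries. It had 0 and 2.35 CPM in those of HCT15, the latter from 5 counts. Every SW620 library lay far above both HCT15 libraries, with a fitted log2 difference of 9.91 (SE 1.07, edgeR adjusted p = 1.4e-05). The footprints of ENSG00000273983 followed, at 2658 and 1005 CPM in SW620 RPF and 0.708 and 1.73 CPM in HCT15 RPF. The log2 difference in footprints was 10.28 (SE 1.07, edgeR adjusted p = 5.5e-06), and the SW620 values themselves differed between libraries. In the other populations its INPUT level was 84.0 ± 52.8 CPM (SD, n = 2) in 841CON and 0 in both HCT116 libraries.

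A second gene, ENSG00000104327, was not counted in HCT15 at all. It had 396 and 374 CPM in SW620 INPUT and 122 and 150 CPM in SW620 RPF, the latter from 14 counts in each library, against 0 in all 4 HCT15 libraries. With a floor of 3 counts over the HCT15 INPUT libraries, its RNA was at least 779-fold higher in SW620 (edgeR adjusted p = 1.7e-05). It was also at 0 in the 4 libraries of 841CON and the 4 of HCT116, so among the populations compared its counts came almost wholly from SW620. The libraries of vector HCT15 held 1 INPUT and 1 RPF count.

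In the opposite direction, ENSG00000129514 had 564 and 513 CPM in HCT15 INPUT and 0 in both SW620 INPUT libraries. Its footprints stood at 399 and 611 CPM in HCT15 RPF and at 0 and 21.4 CPM in SW620 RPF, the last being 2 counts. SW620 was at least 429-fold lower in RNA (edgeR adjusted p = 4.4e-05). Vector HCT15 resembled the parental line, with 403 ± 81.2 CPM (SD, n = 2) in INPUT. The libraries labelled HCT15-COPS7B did not, at 11.7 ± 0.44 CPM, and 841CON and HCT116 were at 7.62 ± 10.8 and 9.64 ± 4.46 CPM.

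ENSG00000163735 was lower in SW620 in both assays. Its INPUT level was 481 and 540 CPM in HCT15 against 0 and 0.655 CPM in SW620, where a single read was counted. The pooled counts gave a level 1214 times lower in SW620, with a 95% counting interval of 218 to 47983, and the fitted log2 difference was -10.10 (SE 1.34, edgeR adjusted p = 5.8e-05). Its footprints stood at 710 and 426 CPM in HCT15 RPF and 0 in both SW620 RPF libraries. With a floor of 3 counts over the SW620 RPF libraries, worth 14.4 CPM, they were at least 33.4-fold lower (edgeR adjusted p = 0.0011). Vector HCT15 held 925 ± 406 CPM (SD, n = 2) in INPUT and the libraries labelled HCT15-COPS7B 4.60 ± 5.78. For both of these genes the libraries labelled HCT15-COPS7B thus go against the other forms of HCT15. They enter the comparison through the shared scaling, filter and spread, and with them left out 2028 genes passed for RNA, 2784 for footprints and 525 for TE.

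Some genes were counted in 1 line and not in the other. A mean of at least 20 INPUT counts in SW620 and 0 in both HCT15 libraries was found for 80 genes, all of which were called, with a median of 43.0 CPM. Of these, 48 were also at 0 in vector HCT15 INPUT, 34 in HCT116 and 50 in 841CON. The footprint tables went the same way for many of them, with 54 at 0 in both HCT15 RPF libraries and 3 at 0 in both SW620 RPF libraries. The reverse pattern, at least 20 counts in HCT15 and 0 in SW620, held for 184 genes, of which 160 were called, with a median of 19.4 CPM. Vector HCT15 INPUT lacked 15 of these 184, and 164 had no footprint in SW620 RPF. The HCT15 INPUT libraries held more counts in the genes shared by all tables, so the same minimum stands for a lower level there. The 80 and the 184 are therefore not to be set against each other. Both sets were chosen on the counts under test, so their calls are a description.

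Footprint levels differed between the lines in both directions. Of the same 11938 genes, 1353 were higher in SW620 and 1981 lower, which is 27.9% called in either direction, 11.3% higher and 16.6% lower by edgeR's quasi-likelihood test at an adjusted p under 0.05. An unadjusted p under 0.05 was reached by 4648. In vector against parental HCT15 the same fit called 1250 genes for footprints, 10.5% of those tested. The median log2 difference over all genes was -0.53 with trimmed-mean scaling, -0.17 without it and 0.12 with DESeq2's size factors.

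The balance of the footprint calls moved with that shift. Without trimmed-mean scaling 1657 genes were higher and 1428 lower, and DESeq2 gave 2236 higher and 971 lower, so neither direction prevailed under every scaling. Relative to the median of all genes, the 1353 higher genes were all over 2-fold apart, as were 1819 of the 1981 lower ones. Zeros were common, with no footprint in HCT15 for 197 of the higher genes and none in SW620 for 326 of the lower ones. Leaving out SW620 RPF replicate 1 or 2 left 1930 or 2220 genes.

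The share of genes called for footprints followed the expression level. It rose from 12.6% in the lowest of the same classes through 18.1%, 24.6% and 34.0% to 50.3% in the highest. These classes rest partly on the footprints under test, and on more libraries labelled HCT15 than SW620. The part of the called genes that was higher in SW620 went from 89.4% in the lowest class to 18.0% in the highest. Along the same classes the median number of SW620 footprints per gene, summed over both libraries, went from 0 through 2, 5 and 9 to 19, and that of HCT15 from 4 to 997.5. The part of this depth gap in the pattern by class was not tested. Over all classes together, with the 8 libraries thinned to the lowest total of their assay, 777 genes were higher and 1066 lower for footprints (1843 called), beside 3065 called for RNA.

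**Figure D1:**
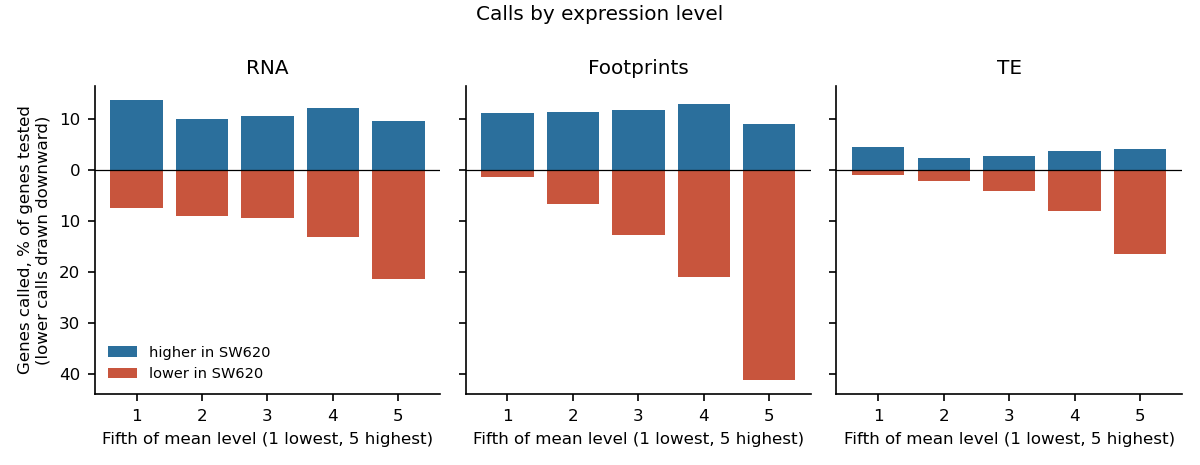
Percentage of tested genes called higher (blue, upward) or lower (red, downward) in SW620 than in HCT15, for RNA, footprints and TE (edgeR adjusted p under 0.05). The 5 classes are of mean log2 CPM over all 24 libraries, INPUT and RPF together, and so rest partly on the values under test. The classes are equal in size for RNA and footprints, and for TE they hold 344, 1634, 2204, 2347 and 2386 tested genes from lowest to highest. In the highest class 50.3% of genes were called for footprints and 31.2% for RNA, and the lower calls outnumber the higher ones there.

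RNA and footprint differences come from separate libraries, and among genes called in both they mostly went the same way. Of the 1347 genes with higher RNA in SW620, 561 (41.6%) also had higher footprints, 53 (3.93%) had lower ones and 733 were not called. Of the 1443 genes with lower RNA, 756 (52.4%) had lower footprints and 4 (0.277%) had higher ones. Over all 11938 genes, 11.3% had higher and 16.6% lower footprints, and 11.3% had higher and 12.1% lower RNA. Seen from the footprints, the 561 are 41.5% of the 1353 higher genes and the 756 are 38.2% of the 1981 lower ones. Called in both were 1374 genes, and 1317 of them had the same direction. Across the 11938 genes, which are not independent of one another, the log2 differences correlated at r = 0.559 (Spearman's rho 0.518).

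The median sizes were similar once the overall footprint shift was taken off. The genes were chosen on the RNA difference, which favours large RNA values, so the medians are given as a description. For the genes with higher RNA the median log2 difference was 2.54 in RNA and 1.68 in footprints, or 2.21 relative to the median of all genes. For those with lower RNA it was -2.03 in RNA and -2.76 in footprints, or -2.23 relative to that median. The footprint comparison also called genes that the RNA comparison did not, namely 788 higher and 1172 lower ones. A gene missing the RNA threshold is not shown to have equal RNA.

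The largest footprint excess by the naming rule was that of ENSG00000117707. It had 0 footprints in both HCT15 RPF libraries and 845 and 866 CPM in SW620 RPF, from 97 and 81 counts. Its RNA was 41.1 and 12.2 CPM in HCT15 and 1185 and 537 CPM in SW620, so that both assays separated the lines. Footprints were at least 1333-fold higher in SW620 (edgeR adjusted p = 2.3e-06), and the fitted RNA difference was 4.97 on the log2 scale. Vector HCT15 had 24.1 ± 9.45 CPM (SD, n = 2) in INPUT and 11.04 ± 6.66 CPM in RPF, so the absence of footprints held for the parental libraries and not for the vector ones. HCT116 had 0 in both assays.

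Among the genes with lower footprints, ENSG00000106367 had 478 and 439 CPM in HCT15 RPF and 0 in both SW620 RPF libraries. Its RNA was 165 and 170 CPM in HCT15 and 26.6 and 61.6 CPM in SW620, a smaller gap without overlap. The drop in footprints was at least 29.9-fold (adjusted p = 5.5e-06 by edgeR). RPF levels in the other populations were 253 ± 117 CPM (SD, n = 2) in vector HCT15, 186 ± 13.5 in 841CON and 61.5 ± 2.21 in HCT116. SW620 was the only population with no footprint of this gene in either library.

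Some genes had footprints in 1 line and none in the other. At least 5 footprints on average in SW620 and 0 in HCT15 were found for 44 genes, all called. At least 50 on average in HCT15 and 0 in SW620 were found for 475 genes, of which 317 were called. These counts use different minimums because the totals differ, and they are not to be set against each other. The genes were chosen on the footprints under test, so their calls are a description.

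**Figure D2:**
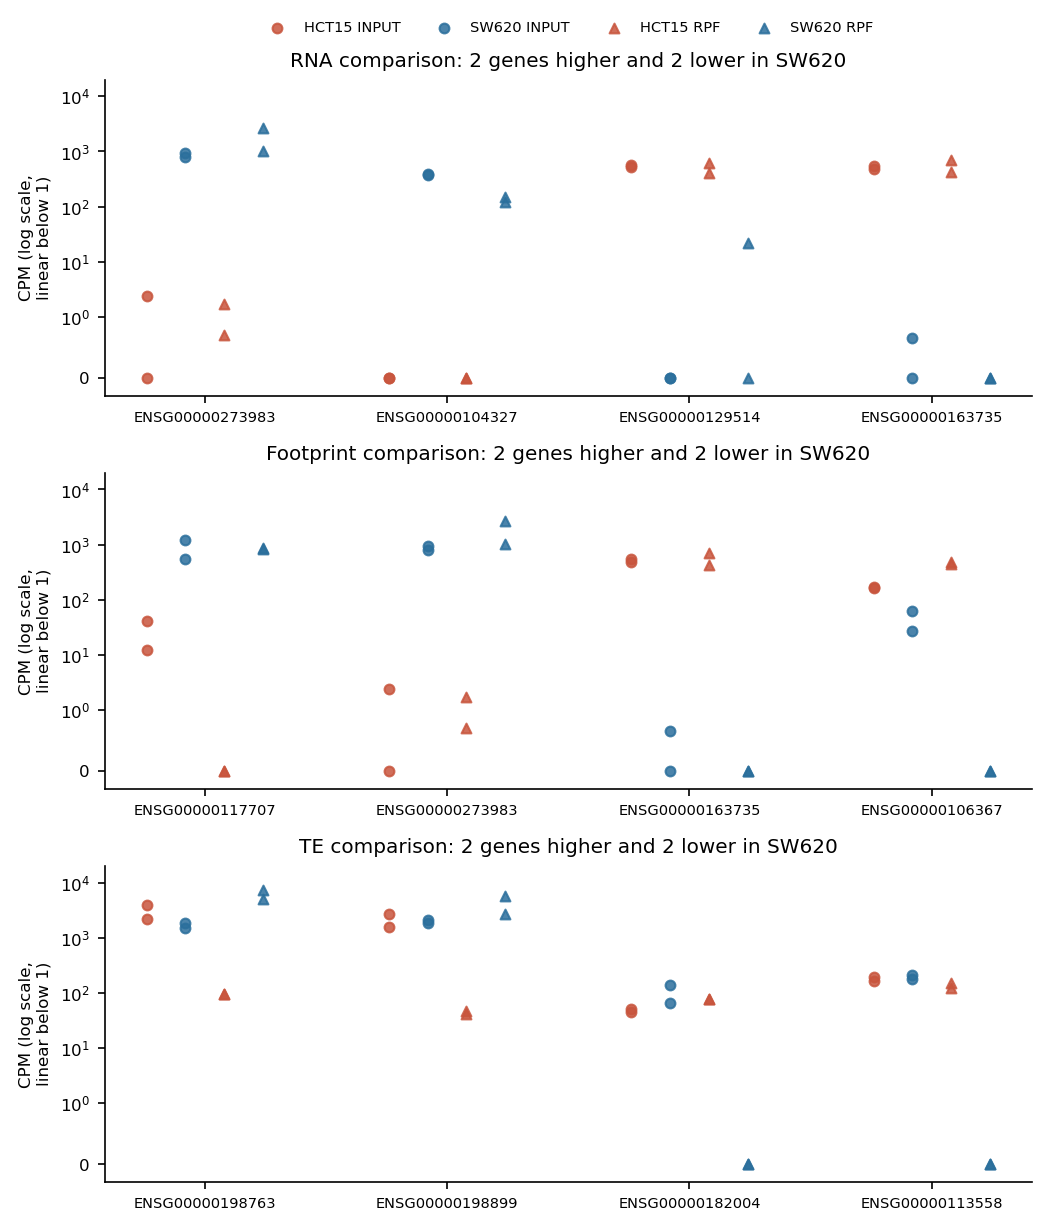
Level in CPM (log scale, linear below 1) of the genes given by identifier, 1 symbol per library, with circles for INPUT, triangles for RPF, red for HCT15 and blue for SW620. For the RNA and footprint comparisons most of the genes separate the lines in both assays, whereas for TE the INPUT circles of the lines lie close together and the RPF triangles lie apart.

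TE was tested for genes with a mean of at least 10 INPUT counts in both lines. Of 8915 such genes, 303 had higher TE in SW620 and 705 lower, which is 11.3% called in either direction, 3.4% higher and 7.91% lower (edgeR's interaction of line and assay, adjusted p under 0.05). An unadjusted p under 0.05 was reached by 2464. In vector against parental HCT15 the same test called 17 of 9738 genes, 0.175%. The median log2 difference was -0.56, and the balance of higher and lower calls turned with the scaling. It was 460 higher and 294 lower without trimmed-mean scaling, and 786 higher and 290 lower with DESeq2.

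The TE count was also the least stable of the 3. It was 374 with the replicate number as a block, 136 with the replicate pairs that barely exceeded sampling noise summed, and 126 when the 8 libraries were fitted alone. Vector HCT15 in place of the parental libraries gave 43 higher and 200 lower genes. Without SW620 INPUT replicate 2 there were 349, without SW620 RPF replicate 1 or 2 there were 559 or 538, and without HCT15 RPF replicate 1 there were 1500.

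Genes with a TE call differed, at the median, far more in footprints than in RNA. The 303 with higher TE had a median log2 difference of 2.98 in TE, 0.14 in RNA and 3.36 in footprints. For the 705 with lower TE these medians were -2.82, 0.51 and -2.45. TE shares its libraries with the other comparisons, so these values are given side by side as a description. Relative to the median of all genes tested, all 303 higher genes and 701 of the 705 lower ones were over 2-fold apart. The footprints behind the calls were few, with medians of 25 in SW620 and 81 in HCT15 for the higher genes and of 8 and 948 for the lower ones. Of the lower genes, 80 had no SW620 footprint, and of the higher ones 24 had none in HCT15.

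**Figure D3:**
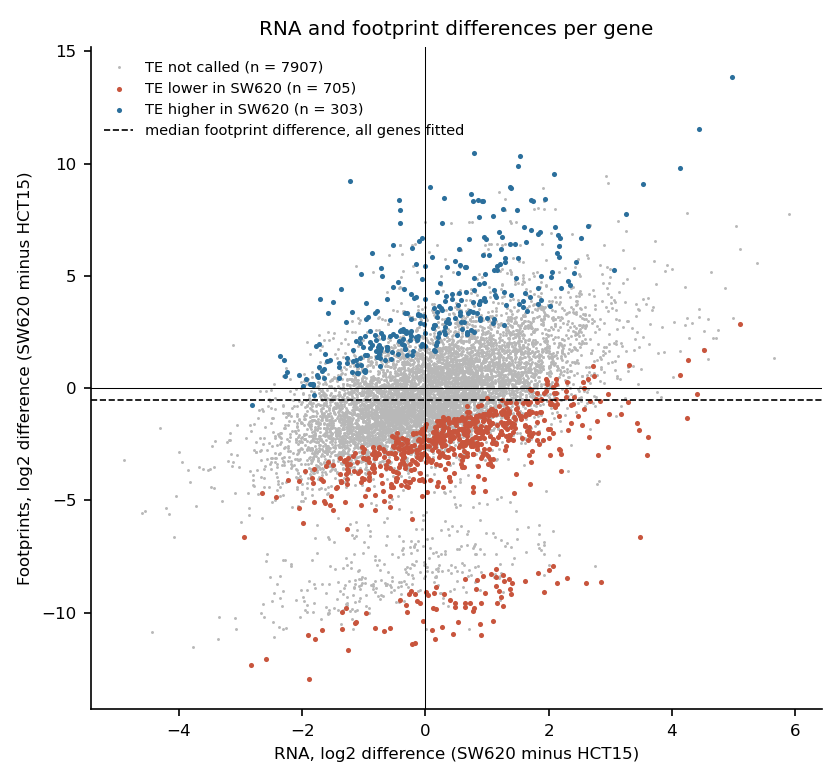
Log2 difference in footprints against log2 difference in RNA (SW620 minus HCT15) for the 8915 genes tested for TE, with the 303 genes of higher TE in blue, the 705 of lower TE in red and the rest in grey. The dashed line marks the median footprint difference of -0.53 over all genes fitted, and the separate band of points at the bottom holds genes with few or no SW620 footprints.

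In counts, the TE-higher genes were a large part of the SW620 footprints. They made up 21.8% and 20.3% of counts in the SW620 RPF libraries and 1.32% and 1.06% in those of HCT15. In INPUT the same genes took 10.3% and 7.47% in SW620 and 10.5% and 7.58% in HCT15. The TE-lower genes made up 6.74% and 6.31% of SW620 footprints and 21.8% and 22.1% of those of HCT15. Their INPUT shares were 13.0% and 15.8% in SW620 and 11.9% and 11.7% in HCT15.

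Where the footprints of both lines were better measured, the TE calls were even in direction. A mean of at least 10 counts in each of the 4 groups was reached by 1768 genes. Of these, 155 had higher and 152 lower TE in SW620, 17.4% in all, and their median log2 difference was 0.07. In RNA 395 of them were higher and 140 lower, and in footprints 547 and 288. This minimum keeps genes with SW620 footprints and so removes lower calls by construction. Over the same genes the log2 ratio of RPF to INPUT CPM had an SD of 0.928 in SW620 and 1.31 in HCT15. The minimum stands for a higher CPM in SW620 RPF than in HCT15 RPF and so removes more of the low SW620 ratios. These SDs therefore do not show that the ratios vary less in SW620.

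The largest TE excess in SW620 by the naming rule was that of ENSG00000198763, one of the most abundant RNAs of both lines. Its RNA was 3876 and 2190 CPM in HCT15 INPUT and 1850 and 1469 CPM in SW620 INPUT, with both SW620 libraries below both of HCT15. Its footprints stood at 94.9 and 92.8 CPM in HCT15 RPF and at 4958 and 7311 CPM in SW620 RPF. The TE difference was 6.90 on the log2 scale (SE 0.63, edgeR adjusted p = 7.6e-06), and the ratio of the pooled values was 118, with a 95% counting interval of 111 to 124. HCT116 RPF stood between the lines at 695 ± 30.1 CPM (SD, n = 2), and vector HCT15 RPF at 281 ± 27.7, above the parental line. In 841CON the level was 18.3 ± 3.70 CPM, below that of every cancer line.

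ENSG00000198899, the next by the rule, also had far more footprints in SW620 at similar RNA. Its INPUT level was 2737 and 1526 CPM in HCT15 and 2122 and 1858 CPM in SW620, with overlapping ranges. Its RPF level was 41.1 and 46.0 CPM in HCT15 and 5646 and 2629 CPM in SW620. Both SW620 values lay far above both of HCT15. The TE difference was 6.66 on the log2 scale (SE 0.77, edgeR adjusted p = 5.7e-05), and the pooled ratio was 103 (95% counting interval 96.1 to 110). HCT116 RPF was again intermediate, at 704 ± 18.1 CPM (SD, n = 2).

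The lowest TE values in SW620 came from genes with no SW620 footprint. ENSG00000182004 had 50.4 and 44.7 CPM in HCT15 INPUT and 64.2 and 139 CPM in SW620 INPUT, so SW620 was not lower in RNA. Its footprints stood at 75.7 and 77.5 CPM in HCT15 RPF and 0 in both SW620 RPF libraries. TE was at least 10.4-fold lower in SW620 with a floor of 3 footprints over both libraries (edgeR adjusted p = 0.0066). HCT116 RPF also held 0 counts of this gene, with 67.9 ± 3.62 CPM (SD, n = 2) in HCT116 INPUT.

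ENSG00000113558 had nearly equal RNA, at 189 and 160 CPM in HCT15 INPUT and 211 and 179 CPM in SW620 INPUT, with overlapping ranges. Its footprints were 122 and 148 CPM in HCT15 RPF and 0 in both SW620 RPF libraries. SW620 was at least 10.2-fold lower in TE (edgeR adjusted p = 0.0068), a bound set by the depth of the SW620 footprints. RPF levels were 94.2 ± 48.7 CPM (SD, n = 2) in vector HCT15, 123 ± 27.5 in 841CON and 26.5 ± 26.3 in HCT116. Of the 10 genes with the lowest TE that the rule selected, all 10 had 0 SW620 footprints.

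A few genes held much of the SW620 footprints. The 10 genes with the most SW620 footprints held 14.3% and 16.5% of counts in the SW620 RPF libraries, and the same genes held 0.732% and 0.771% in HCT15 RPF. In INPUT the shares were alike, at 5.37% and 3.51% in SW620 and 5.96% and 3.66% in HCT15. Of the 9 of these genes that were tested for TE, 7 had higher TE in SW620, against 3.4% of all genes tested. The remaining gene held 1.04% of the pooled SW620 footprints. After rounding it held 0% of HCT15 footprints and 0% of INPUT counts in either line. The genes were chosen on SW620 footprints, so this count is a description. In the other RPF libraries the 10 genes held 1.26% and 1.32% in vector HCT15, 1.11% and 1.13% in the libraries labelled HCT15-COPS7B, 3.71% and 3.78% in HCT116, and 0.437% and 0.456% in 841CON. The choice of the genes on SW620 footprints favours a high SW620 share in RPF, and in INPUT SW620 lay inside the range of the other populations. Each library's own 10 leading genes held 15.1% and 16.5% in SW620 RPF, 11.1% and 11.3% in 841CON, 5.56% and 6.21% in HCT15, 5.85% and 5.89% in HCT116, 5.749% and 5.198% in vector HCT15, and 3.96% and 3.97% in the libraries labelled HCT15-COPS7B.

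**Figure D4:**
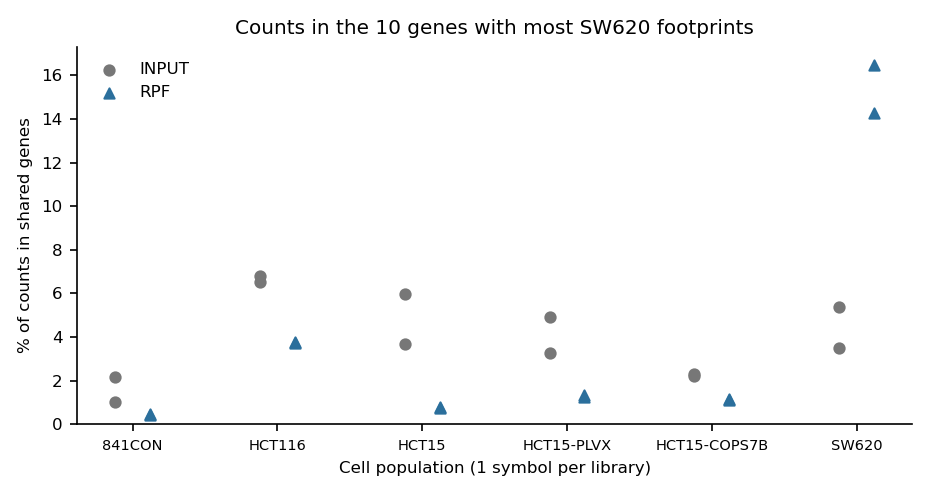
Share of counts, in percent of the counts in shared genes, held by the 10 genes with most SW620 footprints, 1 symbol per library (grey circles INPUT, blue triangles RPF). The SW620 RPF libraries lie at 14.3% and 16.5%, and the RPF libraries of the other populations lie at 3.78% or below.

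The HCT15 footprints were led by other genes. Of the 10 leading genes of each line 1 was shared, and of the leading 100 of each line 37 were. The 10 leading HCT15 genes held 5.09% and 6.21% of HCT15 footprints and 1.67% and 3.26% of SW620 footprints. A total of 576 and 516 genes made up the upper 50% of SW620 footprints, compared with 759 and 698 genes in HCT15 and 502 and 490 in 841CON.

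Levels in the populations outside the contrast place the called genes. The 1347 genes with higher RNA in SW620 had a median of 87.2 CPM there and 15.1 CPM in parental HCT15. Their medians were 24.04 CPM in vector HCT15, 25.9 in HCT116, 29.9 in 841CON and 35.6 in the libraries labelled HCT15-COPS7B. For the 1443 lower genes the median was 19.7 CPM in SW620 and 84.8 in parental HCT15, with 75.9 in vector HCT15, 66.5 in HCT116, 80.4 in 841CON and 48.8 in the libraries labelled HCT15-COPS7B. On the CPM scale every population other than SW620 lay nearer to parental HCT15 than to SW620, except for the libraries labelled HCT15-COPS7B in the lower genes, which lay nearer to SW620.

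The TE sets gave a similar order in the footprints. The 303 TE-higher genes had median RPF levels of 118 CPM in SW620 and 15.8 in parental HCT15, with 37.1 in vector HCT15, 31.2 in HCT116, 40.0 in 841CON and 40.7 in the libraries labelled HCT15-COPS7B. For the 705 TE-lower genes the medians were 36.4 CPM in SW620, 169 in parental HCT15, 119 in vector HCT15, 114 in HCT116, 107 in 841CON and 98.2 in the libraries labelled HCT15-COPS7B. Parental HCT15 and SW620 were the extremes in each set, as the choice of the genes by this contrast makes likely. Vector HCT15 stood between them, apart from the parental line.

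**Figure D5:**
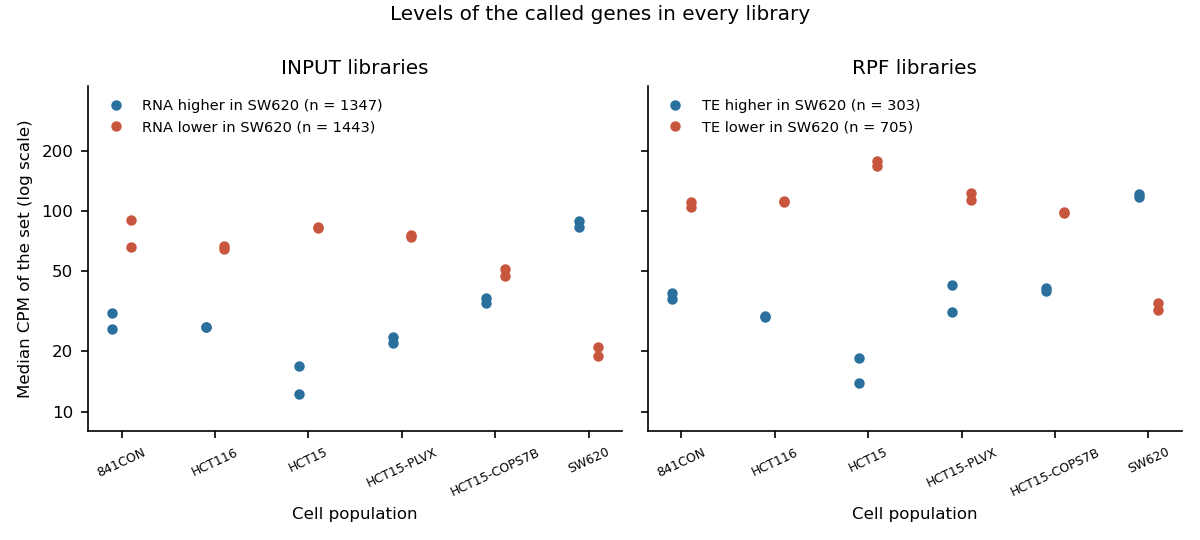
Median CPM (log scale) of the called genes in every library, 1 symbol per library, for the genes called in RNA in the INPUT libraries (left) and for those called in TE in the RPF libraries (right). SW620 and parental HCT15 define the sets, and the other libraries lie between them in both panels, apart from 1 INPUT library of 841CON at 90.4 CPM for the genes with lower RNA.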

How the data were processed

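Per the labels' protocols, cells received cycloheximide, lysates passed sucrose gradients, and small-RNA libraries followed removal of ribosomal RNA; how INPUT RNA was cut is not described. The authors deposited raw counts per Ensembl gene for each library, 60623 genes for INPUT and 20426 for RPF. Tools named in the submitters' processing notes are HTSeq 2.0.2, STAR 2.7.9 and cutadapt 3.5, with the build GRCh38. Annotation release, strand setting and treatment of multiply aligned reads were not given in the sources used here, which leaves antisense or overlapping genes and near-identical copies uncertain. The tables of the 8 compared libraries hold no line that names no gene. Those of vector HCT15 hold 5 such lines each, with 53.6% to 90.8% of the reads, and these lines were left out. The vector and parental tables thus differ in form, and whether this bears on their comparison was not tested.

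Tests used the 20426 shared genes. All 24 libraries entered one quasi-likelihood model of edgeR 4.0.16 (R 4.3.3) with group means, leaving 12 residual degrees of freedom, with trimmed-mean scaling within each assay and edgeR's expression filter (minimum count 10) in both assays, which kept 11938 genes. Such scaling centres each assay, and hides any shift in translation shared by all mRNAs. TE was the interaction of line and assay. Tests were two-sided, with Benjamini-Hochberg adjustment at 0.05. The SE is the log2 difference over the root of the F statistic. Where a group had no count, the bound set a floor of 3 counts over that group against the lower 95% Poisson limit of the pooled counts in the other, the mean INPUT CPM entering TE bounds and ratios. Pooled RNA ratios have exact binomial intervals. All intervals and floors cover counting error only, since reads lacking molecular identifiers may be copies of 1 molecule.

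Genes given by identifier are the first 2 in each direction among called genes whose libraries did not overlap. They were ranked by the difference in mean log2 CPM (prior count 2), with minimums of 50 mean INPUT counts in the higher line for RNA, 20 summed footprints in it for footprints, and 50 mean INPUT counts in both lines with 10 summed footprints for TE. The rule's conditions on symbols and sex-linked genes could not be applied, and lists of pathways and markers were not used here, because identifiers are not paired with names. The comparison and the lists were chosen with earlier results of these data known.

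The replicate numbers were checked for pairing. Deviations of same-numbered libraries correlated at -0.117 to 0.0910 between the 4 groups, so the numbers were not taken to pair the libraries. No replicate pair of the compared groups agreed within sampling noise (chi-square per gene 3.44 to 32.0). The alternatives were scaling over both assays together or none, DESeq2 1.42.0, limma 3.58.1 with a weight per library, other count minimums, the 8 libraries alone, a fold threshold of 2, the replicate block, vector HCT15 in place of the parental libraries, thinning, all INPUT genes, and leaving out each library. Added after seeing the data were genes counted in all 8 libraries, close replicate pairs summed, the libraries labelled HCT15-COPS7B left out, and crossed SW620 numbers. In 3 simulated data sets of 11938 genes, the procedure recovered 55.7% of 4-fold and 93.3% of 32-fold changes in RNA, 28.7% and 70.7% in footprints, and 9% and 61% in TE. False calls were 4.28%, 3.87% and 1.41% of those made. The changed genes were drawn from those well counted in HCT15 in both assays, so recovery is described for such genes only. Counts were drawn from the model's own fitted spread, so the share of false calls does not test how that model suits these data.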

Additional observations from a re-analysis of the deposited data

Results flagged for a closer look

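A total of 1008 genes had a difference between RPF and INPUT that was not the same in SW620 and in HCT15, by edgeR's test of the difference itself. Of these, 303 were higher and 705 lower in SW620, and the balance turned with the scaling.

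The INPUT tables list 40197 genes that the footprint tables do not, and no comparison of the report uses them. Fitted with all INPUT genes, 2174 of them were tested for RNA, and 270 (12.4%) passed edgeR's test at an adjusted p under 0.05, 234 higher in SW620 and 36 lower. Of all 14982 genes in that fit 2564 (17.1%) passed, 1220 higher and 1344 lower, so the share called was smaller among the genes outside the footprint tables. Their median log2 difference was 0.88, beside 0 for all genes of the fit.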

How the results depend on the processing

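Counts of genes called by edgeR's quasi-likelihood test were 2790 for RNA, 3334 for footprints and 1008 for TE. A mean of at least 50 INPUT and 10 RPF counts in both lines left 1049, 947 and 352, the 8 libraries alone 1137, 2120 and 126, and a fold threshold of 2 left 1236, 2101 and 305. Thinning to equal depth gave 3065 for RNA, 1843 for footprints and 377 for TE, and DESeq2 gave 3304, 3207 and 1076, so whether RNA or footprints had more calls depended on the setting. TE counts were 243 with vector HCT15, 314 by limma with a weight per library, 136 with close replicate pairs summed and 525 without the libraries labelled HCT15-COPS7B. RNA counts were 1575 among genes counted in all 8 libraries and 1496 with close pairs summed. The cause was not tested. Fewer genes are tested under the count minimum and in the 8 libraries alone, which bears on those counts by construction.

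With the replicate number as a block, 374 genes passed for TE, 2670 for RNA and 3245 for footprints. The numbers were not taken to pair the libraries, because their deviations correlated only weakly, which cannot exclude pairing. With the SW620 numbers crossed, 607 passed for TE.

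Leaving out each library in turn gave 1624 to 3351 for RNA, the lowest without SW620 INPUT replicate 1, 1930 to 3616 for footprints, the lowest without SW620 RPF replicate 1, and 349 to 1500 for TE, the lowest without SW620 INPUT replicate 2. A lone library was taken to vary as the other groups do. The share of higher calls turned with the scaling, from 40.6% of footprint calls to 53.7% unscaled and 69.7% with DESeq2, and from 30.1% of TE calls to 61.0% and 73.0%. Limma gave 2033 higher and 1643 lower for footprints. Each gene given by identifier kept its direction and stayed past the threshold in every alternative that gave a value for it, with a highest adjusted p of 0.043 across edgeR, limma and DESeq2. Medians of gene lists were not run. The SW620 footprint totals limit what could be detected, and TE changes of 4-fold were mostly missed in simulated data.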
